A study of Mus musculus with 3 samples.

Results

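The VEGF and angiopoietin genes described here were 6 ligands, Vegfa, Vegfc, Vegfd, Pgf, Angpt1 and Angpt2, and 4 receptors, Flt1 (VEGFR1), Kdr (VEGFR2), Flt4 (VEGFR3) and Tek (TIE2). They were chosen by name and are 10 of the 32285 genes in the count matrices, each present as a single row. The data were 3 droplet single-cell libraries of full-thickness dorsal skin from wild-type C57BL/6J mice. Their age is given as 8 weeks before the irradiation period, which itself ran for 12 weeks. CON skin was not irradiated. UV skin was exposed on alternate days to UVA (0.60 mW/cm2) mixed with UVB, whose irradiance was 3.5 mW/cm2. Rux skin had the same exposures, each followed by an ointment with 1.5% ruxolitinib, an inhibitor of the kinases JAK1 and JAK2. Skin was taken 24 hours after the last exposure, and the study's text gives the CON and UV mice as vehicle-treated. The number of mice behind each library was not given in the sources used here.

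VEGF ligands are secreted dimers that signal through receptor tyrosine kinases on endothelium. VEGFA acts mainly through KDR, while FLT1 binds VEGFA and PGF tightly with weak kinase activity and also exists as a soluble decoy. VEGFC and VEGFD, once cleaved, act through FLT4 and support lymphatic growth. ANGPT1, made by perivascular and stromal cells, activates TEK and favours quiet, tight vessels, whereas ANGPT2 is stored in endothelium and opposes or replaces ANGPT1 depending on context.

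After filters on cells, 10777, 10231 and 9299 cells remained in CON, UV and Rux, with library totals between 115727559 and 140959836 unique molecular identifiers (UMIs). Cells were clustered without the 10 genes, and 6 of 44 clusters stayed unnamed. The others were given to cell classes by marker lists that hold none of the 10 genes, and names carry "-like" because they were rebuilt here. The classes used most are fibroblasts (FB), keratinocytes (KC), blood vascular endothelium (VEC), lymphatic endothelium (LEC), pericytes with vascular smooth muscle (PCY), myeloid cells (MYE), lymphocytes (LYM), mast cells (MC), neutrophils (NEU), melanocytes (MEL) and Schwann cells (SCH). FB-like cells numbered 3190, 4861 and 4531 in CON, UV and Rux, VEC-like cells 406, 477 and 182, LEC-like cells 433, 302 and 144 and PCY-like cells 210, 248 and 116. Unnamed clusters held 14.8%, 13.3% and 12.4% of the cells. The labels give female mice, but the Y-linked gene Ddx3y stood between 110.4 and 121 UMIs per 1000000 (CPM) in the 3 libraries and Xist between 0.0922 and 0.119. Barcodes occurring in a pair of libraries numbered between 28 and 50, and leaving those cells out changed no count of members past 1.5-fold given here. With 1 library per condition there is no replicate error and no test: intervals are exact 95% Poisson or binomial intervals that cover counting error only, and differences between libraries cannot be told apart from differences between mice or preparations.

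The stretches upstream of Kdr, Tek and Flt1 are shown because these receptors were high in blood vascular endothelium in all 3 libraries. RefSeq's table for GRCm38.p6 held promoters of 8 of the 10 genes, all but Angpt1 and Angpt2. The 240 bases below run 5′ to 3′ along the gene and end 10 bases before the annotated start. Capitals mark CCGGAA and CAGGAA, forms of the site bound by ETS factors, searched on both strands without overlap between them.
Kdr, chr5:75978466-75978705, minus strand: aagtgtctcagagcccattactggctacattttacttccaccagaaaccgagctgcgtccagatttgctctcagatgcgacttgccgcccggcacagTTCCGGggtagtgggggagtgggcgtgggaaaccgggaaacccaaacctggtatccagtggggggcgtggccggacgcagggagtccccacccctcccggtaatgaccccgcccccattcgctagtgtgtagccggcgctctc
Tek, chr4:94739039-94739278, plus strand: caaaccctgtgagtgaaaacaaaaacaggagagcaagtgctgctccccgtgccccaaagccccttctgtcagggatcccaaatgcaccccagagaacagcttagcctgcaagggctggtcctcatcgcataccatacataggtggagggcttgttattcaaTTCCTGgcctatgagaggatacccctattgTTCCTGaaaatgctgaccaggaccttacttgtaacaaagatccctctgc
Flt1, chr5:147726022-147726261, minus strand: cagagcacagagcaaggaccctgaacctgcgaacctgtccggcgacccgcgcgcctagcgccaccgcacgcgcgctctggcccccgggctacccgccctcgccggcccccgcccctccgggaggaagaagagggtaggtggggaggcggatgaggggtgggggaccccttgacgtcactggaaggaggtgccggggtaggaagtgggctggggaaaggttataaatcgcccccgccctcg
Kdr held 1 match to CCGGAA, 153 bases upstream of the start, and Tek held 2 matches to CAGGAA, 89 and 59 bases upstream, all on the opposite strand. Flt1 held neither in this window. Of 32851 promoter windows of the same length, 11.2% held CCGGAA and 24.7% held CAGGAA, so these matches are a description of the letters and not of binding.

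Levels below are UMIs per 1000000 UMIs of the class in that library (CPM), and 3 values in a row are for CON, UV and Rux in that order. The assay counts 3′ ends, so a UMI stands for 1 molecule whatever the transcript length. The matrices hold counts per gene, so isoforms such as soluble and membrane Flt1 are not separated. The plot of all 10 genes by class shows the receptors high in few classes and the ligands spread over stromal, epithelial and immune classes.

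**Figure D1:**
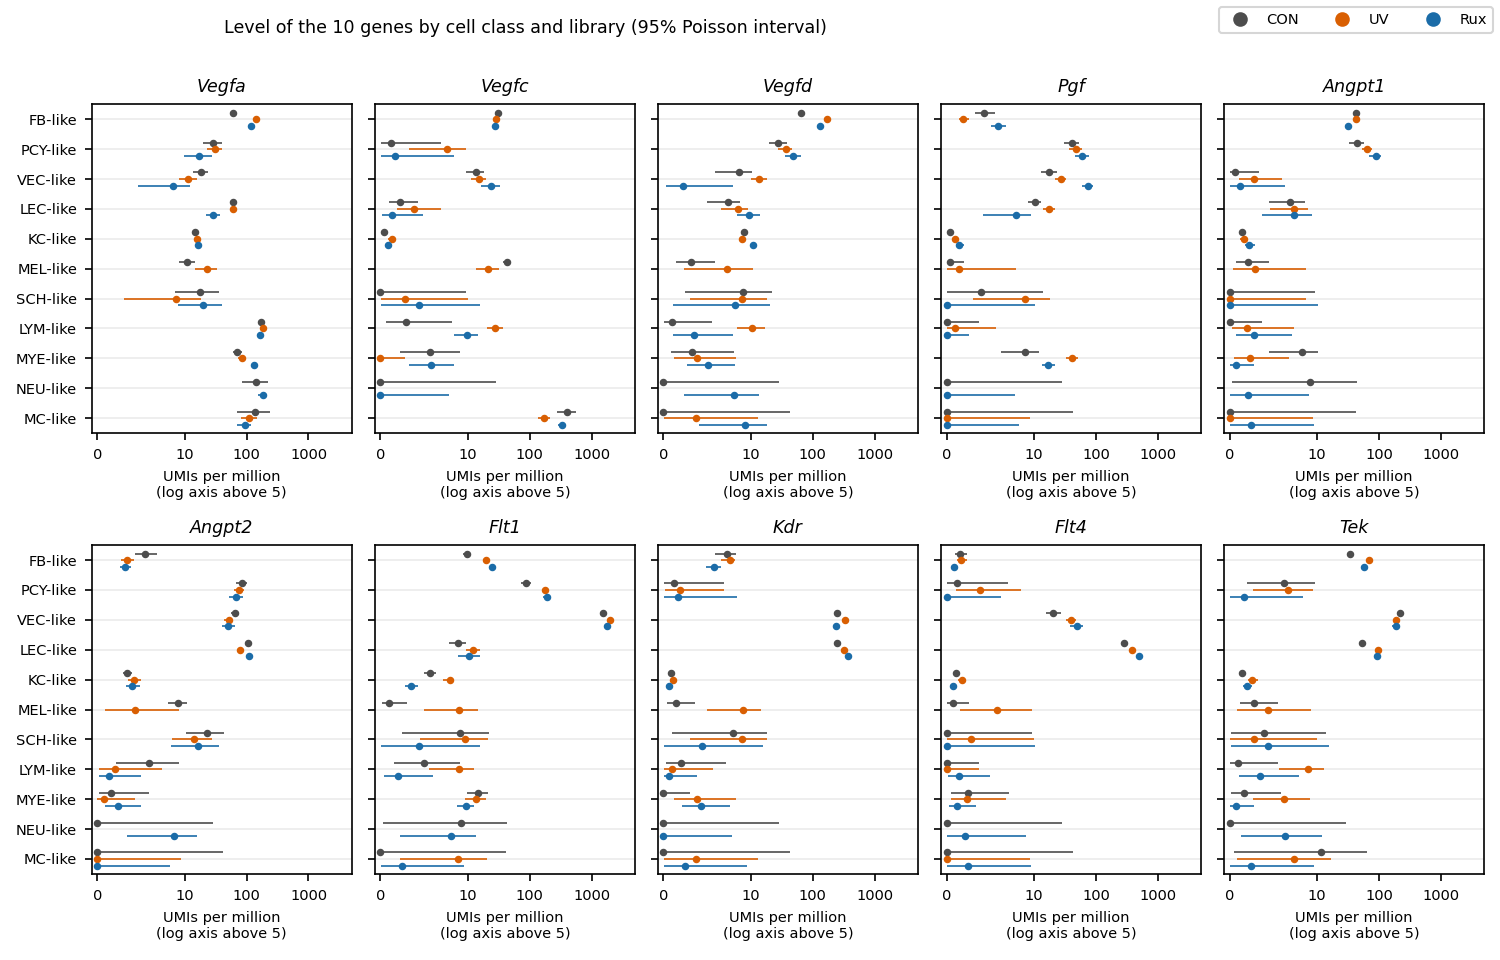
Each panel plots 1 gene, with cell classes on the vertical axis and CPM on a horizontal axis that is logarithmic above 5. Points are the CON, UV and Rux libraries (classes with at least 50 cells) and bars are 95% Poisson intervals. Flt1 in VEC-like cells stands at 1547, 1986 and 1804, and Kdr and Flt4 are high in LEC-like cells.

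Flt1, ENSMUSG00000029648, chr5:147561604-147726011, was highest in blood vessels. Its level in VEC-like cells was 1547, 1986 and 1804 CPM, and a UMI was found in 94.8%, 97.5% and 87.9% of those cells against 4.86%, 6.98% and 3.65% of KC-like cells, read here as the background share. After thinning every cell to 2000 UMIs the shares were 85.7%, 91.2% and 84.8% and 0.747%, 0.953% and 0.379%. PCY-like cells held 86.8, 180.0 and 189 CPM, FB-like cells 9.70, 19.7 and 24.2, MYE-like cells 14.6, 13.8 and 9.37 and LEC-like cells 6.94, 12.3 and 10.7. A Flt1 UMI was found in 6.24%, 10.6% and 3.47% of LEC-like cells, beside 4.86%, 6.98% and 3.65% of KC-like cells. In Rux, 22 UMIs in the LEC-like subcluster LEC_0 came from 2 cells. UV stood above CON in PCY-like and FB-like cells, with log2 ratios of 1.05 (95% interval 0.73 to 1.38) in PCY-like cells and 1.02 (95% interval 0.79 to 1.25) in FB-like cells. Rux differed from UV by less than 1.5-fold in both. A UMI of the endothelial markers Pecam1 or Cdh5 was found in 13.5%, 13.0% and 5% of PCY-like cells with a Flt1 UMI. Without a Flt1 UMI the shares were 3.47%, 8.97% and 5.26%. The part of endothelial RNA in the PCY-like Flt1 level was not tested.

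Kdr, ENSMUSG00000062960, chr5:75932827-75978458, which carries most VEGFA signalling in endothelium, was shared between both endothelial classes. VEC-like cells held 251, 329 and 235 CPM and LEC-like cells 243, 319 and 366 CPM. The intervals of the classes overlapped in CON and UV, while in Rux the LEC-like level, 366 (95% interval 342 to 392), lay above the VEC-like level, 235 (95% interval 210.4 to 262). A Kdr UMI was found in 61.1%, 65.4% and 57.7% of VEC-like cells, in 76.4%, 82.1% and 85.4% of LEC-like cells and in 1.15%, 1.15% and 0.928% of KC-like cells. FB-like cells held at most 4.85 CPM.

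Flt4, ENSMUSG00000020357, chr11:49609263-49652739, the receptor of VEGFC and VEGFD, was highest in LEC-like cells in all 3 libraries. Its LEC-like level was 287, 381 and 499 CPM and its VEC-like level 20.6, 39.8 and 48.9 CPM, with at most 1.11 CPM in FB-like or KC-like cells. In LEC-like cells the log2 ratio was 0.41 (95% interval 0.31 to 0.50) for UV over CON and 0.39 (95% interval 0.28 to 0.50) for Rux over UV, each under 1.5-fold, and 0.80 (95% interval 0.69 to 0.90) for Rux over CON. In VEC-like cells it was 0.94 (95% interval 0.49 to 1.43) for UV over CON. Kdr and Flt4 UMIs occurred together in 67.4%, 74.5% and 77.8% of LEC-like cells and in 9.11%, 15.3% and 17.6% of VEC-like cells.

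Tek, ENSMUSG00000006386, chr4:94739289-94874976, the angiopoietin receptor, was also found in fibroblasts. It stood at 221, 187 and 185 CPM in VEC-like cells, 53.9, 97.4 and 93.4 in LEC-like cells and 33.8, 67.7 and 56.3 in FB-like cells, and at no more than 4.24 in PCY-like cells. The LEC-like level was higher in UV than in CON by a log2 ratio of 0.85 (95% interval 0.65 to 1.06), and Rux over UV was -0.058 (95% interval -0.30 to 0.18). The share of LEC-like cells with a UMI was 34.2%, 54.3% and 54.9%, or 9.25%, 15.3% and 14.9% at 2000 UMIs per cell. The VEC-like level was lower in UV than in CON by less than 1.5-fold.

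VEC-like and PCY-like cells were split further by marker lists for arterial, capillary and venous endothelium and for pericytes and smooth muscle. The capillary-like share of VEC-like cells was 29.1%, 58.7% and 46.7% and the venous-like share 45.3%, 18.2% and 29.1%. Arterial-like cells numbered 9, 12 and 8, so their values rest on few cells. Flt1, Kdr and Tek kept their order between capillary-like and venous-like cells in all 3 libraries, as the plot by vessel subtype shows.

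**Figure D2:**
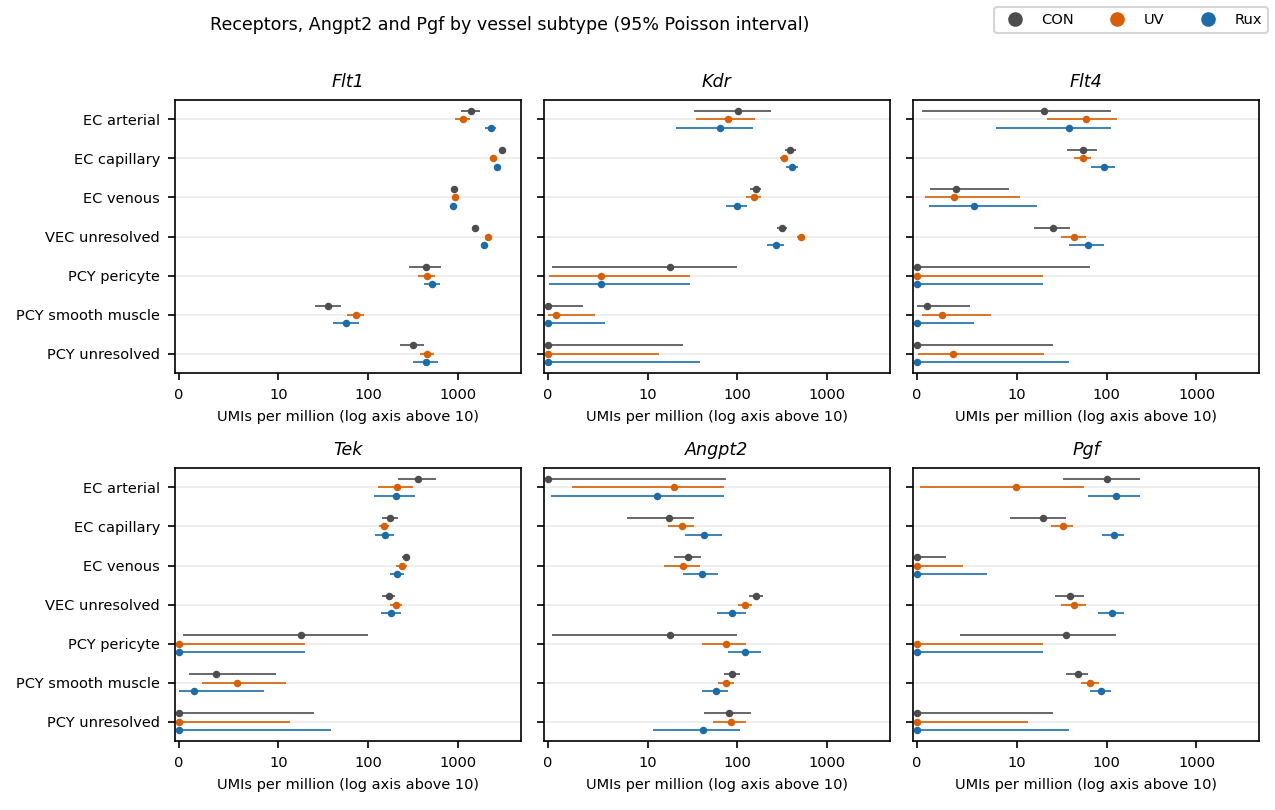
Each panel plots 1 gene in endothelial (EC, VEC) and mural (PCY) subtypes, with CPM on a horizontal axis that is logarithmic above 10. Points are libraries and bars are 95% Poisson intervals. Flt1 and Kdr are higher in capillary-like than venous-like cells in every library, Pgf is at 0 UMIs in venous-like cells, and Tek is higher in venous-like than capillary-like cells.

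Capillary-like cells held 3103, 2469.5 and 2708 CPM of Flt1 and venous-like cells 912, 932 and 887. Kdr followed with 387, 328 and 403 CPM in capillary-like and 161, 151 and 98.8 in venous-like cells, and none of these intervals overlapped between the subtypes. Tek ran the other way, with 176, 151 and 153 CPM in capillary-like and 265, 235 and 211 in venous-like cells. The Tek intervals overlapped in Rux and were separate in CON and UV. Flt4 was 54.2, 54.5 and 92.4 CPM in capillary-like cells and 3.95, 3.75 and 5.70 in venous-like cells, where it rested on 5, 3 and 3 UMIs. Among mural cells, Flt1 stood at 444, 453 and 517 CPM in pericyte-like and 36.1, 73.2 and 57.1 in smooth-muscle-like cells. PCY-like cells that matched neither list held 312, 456 and 439.

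The mix of subtypes differed between libraries, so class ratios are given beside those within subtypes. Flt1 in all VEC-like cells had a log2 ratio of 0.36 (95% interval 0.30 to 0.42) for UV over CON, whereas it was -0.33 (95% interval -0.41 to -0.24) within capillary-like and 0.033 (95% interval -0.10 to 0.17) within venous-like cells. Kdr gave 0.39 (95% interval 0.25 to 0.53) over the class, -0.24 (95% interval -0.48 to 0.0023) within capillary-like cells and -0.086 (95% interval -0.42 to 0.24) within venous-like cells. The VEC-like cells that matched no subtype list had a higher Kdr level in UV than in CON, with 0.69 (95% interval 0.47 to 0.92). In the same unmatched cells the Flt1 ratio was 0.47 (95% interval 0.37 to 0.58). Flt4, whose class ratio was past 1.5-fold, gave -0.0089 (95% interval -0.62 to 0.68) within capillary-like cells and 0.77 (95% interval -0.021 to 1.63) within the unmatched cells, where it rested on 20 UMIs in CON and 41 in UV. In PCY-like cells the Flt1 class ratio of 1.05 stood beside 0.011 (95% interval -0.63 to 0.74) within pericyte-like cells and 1.01 (95% interval 0.45 to 1.61) within smooth-muscle-like cells. Pericyte-like cells numbered 18, 41 and 26, and their share of the class was 8.57%, 16.5% and 22.4%. PCY-like cells that matched neither list gave 0.54 (95% interval 0.049 to 1.07). Rux over UV for Kdr was -0.93 (95% interval -1.28 to -0.61) within the unmatched VEC-like cells. Within venous-like cells it was -0.61 (95% interval -1.11 to -0.14), but 0.30 (95% interval 0.046 to 0.55) within capillary-like cells. For Flt4, Rux over UV was 0.77 (95% interval 0.19 to 1.31) within capillary-like and 0.51 (95% interval -0.34 to 1.28) within unmatched cells.

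Vegfa, ENSMUSG00000023951, chr17:46016993-46032369, the main angiogenic ligand, came mostly from FB-like cells in the irradiated libraries. FB-like cells held 29.2%, 66.5% and 69.4% of the Vegfa UMIs while making up 29.6%, 47.5% and 48.7% of the cells, and KC-like cells held 28.9%, 10.3% and 7.98% while making up 33.8%, 18.8% and 17.4%. These shares follow the cells recovered as well as the level per cell. The FB-like level was 59.5, 142 and 119.7 CPM, with a log2 ratio of 1.26 (95% interval 1.17 to 1.35) for UV over CON and -0.25 (95% interval -0.30 to -0.20) for Rux over UV. The KC-like level was 14.6, 15.7 and 16.2 CPM and differed by less than 1.5-fold in each comparison. The KC-like clusters differed in share between libraries. Basal interfollicular cluster 17 had 485, 24 and 78 cells and suprabasal cluster 31 had 239, 4 and 18. The part of this mix in the KC-like Vegfa level was not tested.

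**Figure D3:**
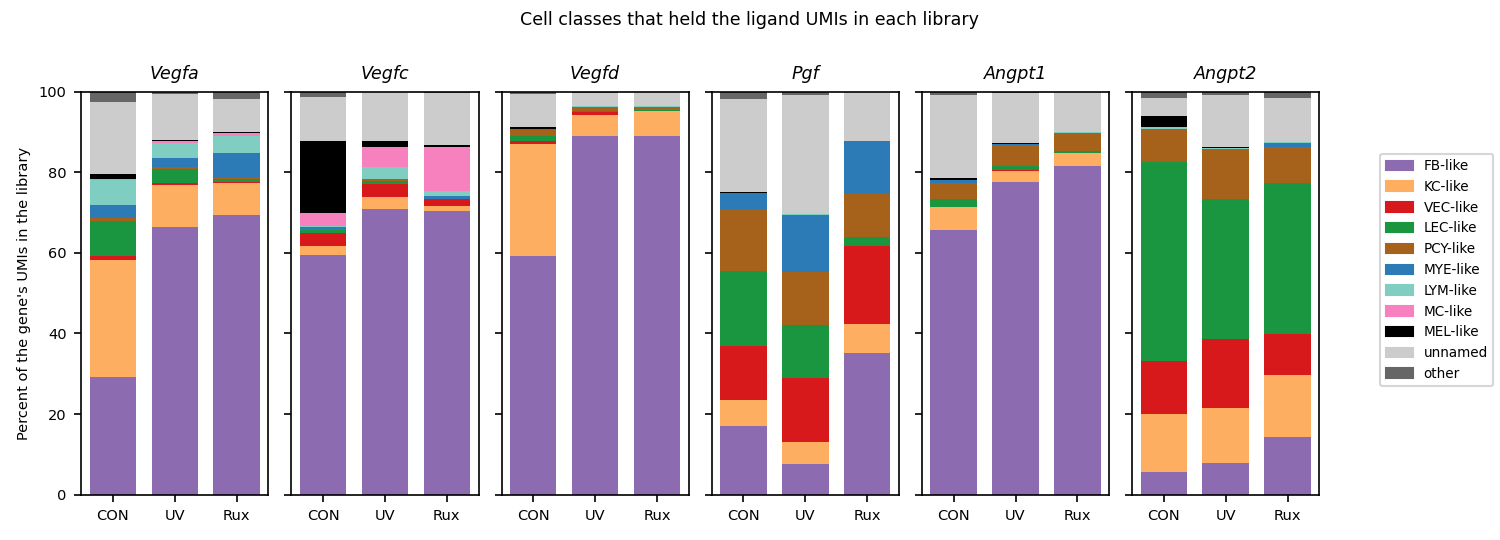
Stacked bars give, for each ligand and library, the percent of its UMIs held by each cell class. FB-like cells hold 29.2%, 66.5% and 69.4% of Vegfa, LEC-like cells hold the largest share of Angpt2 among the named classes in each library, and Pgf has no single main source.

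LYM-like cells stood above fibroblasts for Vegfa in each library. They held 173, 184 and 164 CPM, mostly from clusters 38 and 41. Cluster 38, led by Gzmc and Xcl1, held 435, 500.1 and 541 CPM in 24, 56 and 66 cells, and cluster 41, led by Trdc and Cd3g, held 326 in CON and had 1 cell in each of the other libraries. Cluster 16, led by Icos and Ikzf3, held 19.8, 31.8 and 20.6. The class level was similar in the 3 libraries although its clusters were not. In MYE-like cells Vegfa was 70.8, 84.6 and 131 CPM, with a log2 ratio of 0.63 (95% interval 0.38 to 0.89) for Rux over UV. That ratio was 0.40 (95% interval 0.12 to 0.69) within cluster 11 and 0.81 (95% interval 0.21 to 1.44) within cluster 37, which immunoglobulin and MHC class II genes led. NEU-like cells, of which the Rux library held 221 and the CON library 50, had 140.4 CPM in CON and 182 in Rux.

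Vegfa stood differently in the endothelial classes. A UMI was found in 33.3%, 35.1% and 25.0% of LEC-like cells and in 8.37%, 6.499% and 4.95% of VEC-like cells, against 21.1%, 23.7% and 22.6% of KC-like cells. After thinning to 2000 UMIs per cell, the shares were 8.76%, 8.01% and 7.09% in LEC-like, 2.92%, 1.39% and 0% in VEC-like and 2.85%, 2.70% and 2.97% in KC-like cells, so the VEC-like share is not read as expression above the KC-like one. The LEC-like level was 60.3, 60.9 and 29.0 CPM, lower in Rux than in UV by a log2 ratio of -1.06 (95% interval -1.47 to -0.68). The LEC-like subcluster LEC_0, of 262, 148 and 55 cells, held 67.3, 70.6 and 30.6 CPM, and LEC_1, of 147, 89 and 65 cells, held 15.7, 27.5 and 26.2 CPM from 12, 13 and 16 UMIs. LEC_0 was the larger of the pair in CON and UV, and LEC_1 in Rux. VEC-like cells held 18.3, 11.4 and 6.47 CPM from 48, 39 and 9 UMIs. Their ratio of UV over CON, -0.68 (95% interval -1.33 to -0.041), turned to 0.67 when predicted doublets were kept, so its direction depends on that step.

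Vegfd, ENSMUSG00000031380, chrX:164373378-164402650, a ligand of FLT4, came mainly from fibroblasts. FB-like cells held 59.2%, 89.1% and 89.03% of its UMIs, and their level was 65.4, 171 and 133 CPM. The log2 ratio was 1.39 (95% interval 1.30 to 1.47) for UV over CON, the largest among the 10 genes in FB-like cells, and -0.37 (95% interval -0.42 to -0.32) for Rux over UV. PCY-like cells held 27.9, 36.4 and 48.3 CPM. KC-like cells as a class held 7.67, 7.14 and 10.8 CPM, but basal interfollicular cells of cluster 17 held 46.6, 26.2 and 44.7 and upper-follicle cells of cluster 9 held 18.1, 28.4 and 36.3.

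FB-like cells were 8 clusters whose shares differed between libraries, so a class ratio can hold a difference in the mix. Cluster 4, led by Sntg1 and Smpd3, made up 4.04%, 22.4% and 7.92% of FB-like cells, cluster 0, led by Thbs4 and Myoc, 45.6%, 23.5% and 23.8%, and cluster 2, led by Myo16 and Cthrc1, 8.68%, 17.0% and 23.4%. Cluster 20, led by Saa3 and Hp, made up 0.502%, 2.67% and 8.63%. The plot of FB-like clusters gives their Vegfa, Vegfd and Tek levels beside these shares.

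**Figure D4:**
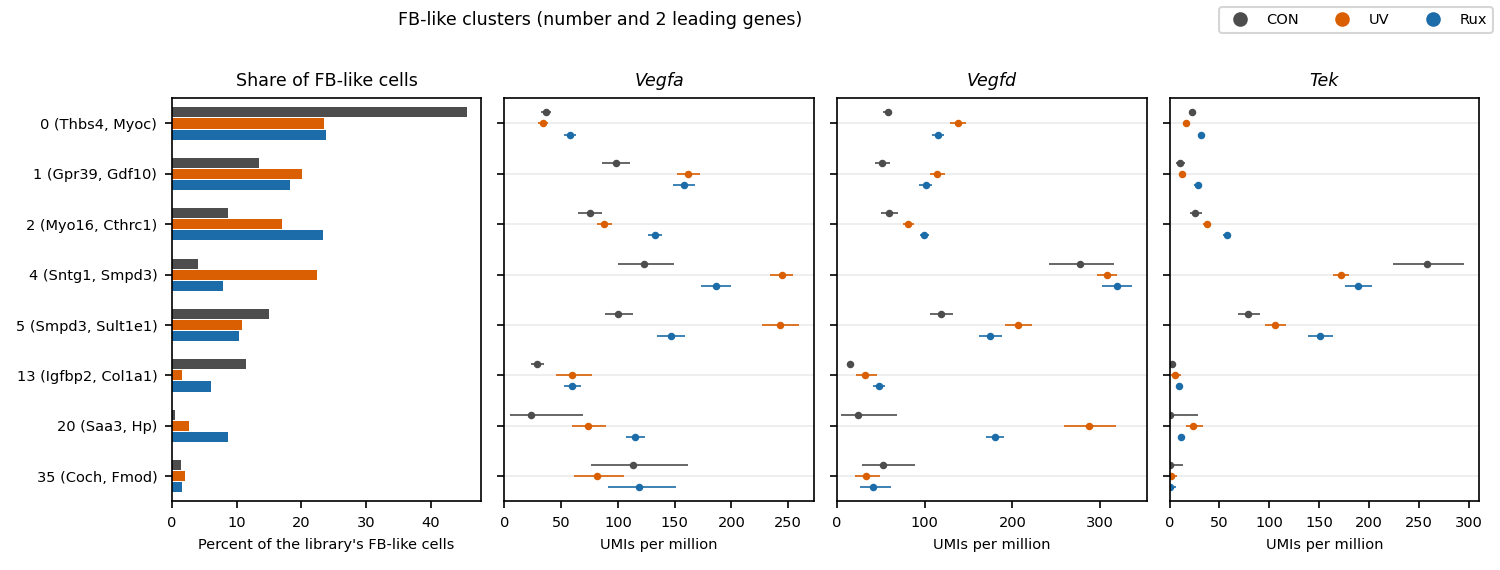
The first panel plots each FB-like cluster's percent of the library's FB-like cells, and the other panels plot Vegfa, Vegfd and Tek in CPM with 95% Poisson intervals. Cluster 4 holds 4.04%, 22.4% and 7.92% of FB-like cells in CON, UV and Rux and is the highest for Tek in each library.

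Vegfa was highest in clusters 4 and 5 of the UV library. Cluster 4 held 123, 244 and 186 CPM and cluster 5, led by Smpd3 and Sult1e1, 100.5, 243 and 147. Of the 6 FB-like clusters with at least 50 cells in CON and UV, 4 stood past 1.5-fold higher in UV for Vegfa and 4 for Vegfd, and none lower, while 25% of all genes compared in FB-like cells as a class were past that fold in either direction. No share over all genes was computed within single clusters, so the 25% is not a baseline for these counts. Cluster 0 was not among the clusters higher in UV for Vegfa, with 36.3, 33.8 and 57.5 CPM, but was for Vegfd, with 57.6, 138 and 115. Cluster 4 was high for Vegfd in each library, with 277, 308 and 319 CPM. Clusters differed in Rux over UV for Vegfa, at -0.73 (95% interval -0.89 to -0.57) in cluster 5 and 0.76 (95% interval 0.54 to 0.99) in cluster 0.

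Weighting the 8 clusters as they were in CON left Vegfa higher in UV by a log2 ratio of 0.70 and Vegfd by 0.94. The weighted Rux over UV ratios were -0.028 and -0.15. Weighting was chosen after the cluster shares were seen.

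For Tek the weighting ended the difference of UV over CON but not every difference. The class ratio of UV over CON was 1.00 (95% interval 0.88 to 1.12), and the weighted ratio was -0.031. The weighted Rux over UV ratio was 0.61, from 35.9 CPM in UV and 54.6 in Rux, whereas the class level was lower in Rux than in UV. Tek lay in cluster 4, with 258, 172 and 189 CPM, and in cluster 5, with 79.1, 106 and 151, against 23.0, 16.4 and 31.8 in cluster 0 and 2.41, 5.04 and 9.43 in cluster 13. Within cluster 4, UV was lower than CON, at -0.59 (95% interval -0.80 to -0.37). A UMI of Pecam1 or Cdh5, which mark endothelium, was found in 4.40%, 15.03% and 8.81% of FB-like cells with a Tek UMI and in 4.35%, 11.5% and 7.50% of those without, and the 9 VEC markers summed to 21.4, 52.2 and 29.2 CPM in FB-like cells against 5908, 6817 and 7477 in VEC-like cells. The part of these markers in the Tek ratio was not tested. Flt1 in FB-like cells was also higher in UV after weighting, at 1.28, and lay mainly in clusters 0 and 2, with 13.2, 33.8 and 29.0 and 18.6, 44.3 and 41.8 CPM.

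Vegfc, ENSMUSG00000031520, chr8:54077606-54187096, which drives lymphatic sprouting through FLT4, was highest in MC-like cells. They held 401, 173 and 335 CPM from 35, 74 and 212 UMIs, found in 23.8%, 22.2% and 33.6% of cells, against 0.549%, 1.51% and 1.11% of KC-like cells. The MC-like median depth was 950.0, 1242 and 1655 UMIs per cell. The log2 ratio was -1.22 (95% interval -1.81 to -0.59) for UV over CON and 0.95 (95% interval 0.57 to 1.36) for Rux over UV. FB markers summed to 7418, 654 and 807 CPM in MC-like cells, beside an FB-like Vegfc level of 30.4, 29.0 and 27.6, and their part in the MC-like ratios was not tested. That fibroblast level, which differed by less than 1.5-fold in each comparison, made up 59.5%, 71.0% and 70.4% of all Vegfc UMIs. MEL-like cells held 42.7, 21.1 and 16.9 CPM, the last from 36 cells. Among VEC-like cells the arterial-like ones held 60.4, 149 and 167 CPM, from 3, 15 and 13 UMIs, and the capillary-like ones 3.87, 5.70 and 6.76. In LYM-like cells of UV and Rux, Vegfc came mostly from cluster 38, with 0, 85.7 and 30.4 CPM.

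Pgf, ENSMUSG00000004791, chr12:85166635-85177790, the FLT1 ligand, rested on 342, 592 and 528 UMIs in the 3 libraries. VEC-like cells held 17.5, 27.2 and 73.4 CPM, with log2 ratios of 0.63 (95% interval 0.11 to 1.18) for UV over CON and 1.43 (95% interval 1.01 to 1.85) for Rux over UV. Both ratios kept their direction in every alternative run, the second between 1.09 and 1.72, while the first was under 1.5-fold in some, down to 0.40. Within subtypes, capillary-like cells held 19.4, 32.3 and 119 CPM and unresolved VEC-like cells 39.3, 43.7 and 114. Venous-like cells had 0 UMIs in each library, with upper limits of the 95% Poisson interval at 2.91, 4.62 and 7.01 CPM. Within capillary-like cells Rux over UV was 1.88 (95% interval 1.30 to 2.47). These UMIs came from few cells: a Pgf UMI was found in 6, 28 and 11 of 118, 280 and 85 capillary-like cells, that is 5.08%, 10% and 12.9%, and in 2.04%, 5% and 10.4% after thinning to 2000 UMIs per cell. The unresolved values rested on 31, 41 and 39 UMIs. In VEC-like cluster 15, led by Iglc2 and Sele, 37, 46 and 31 Pgf UMIs came from 10, 6 and 4 cells. The intervals of the ratios count UMIs and do not cover this spread between cells. Over all VEC-like cells the share with a UMI was 3.69%, 6.92% and 9.34%, against 0.549%, 1.30% and 1.73% of KC-like cells.

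Outside blood endothelium Pgf was found in PCY-like, MYE-like and LEC-like cells. PCY-like cells held 41.4, 47.3 and 60.1 CPM, all but 2 UMIs of it in smooth-muscle-like cells, at 47.5, 65.6 and 86.4. MYE-like cells held 7.29, 41.3 and 17.0 CPM, with a log2 ratio of 2.46 (95% interval 1.68 to 3.44) for UV over CON and -1.28 (95% interval -1.76 to -0.80) for Rux over UV. A stricter filter on cells gave 1.59 for the first. The class joins a pair of unlike clusters. Cluster 11, led by Lyz2 and Ccl4, held 3.82, 43.8 and 7.59 CPM, from 5, 55 and 25 UMIs in 5, 17 and 12 cells. Cluster 37 had Cd74 and H2-Ab1 of the myeloid list among its leading genes, but Igkc and Ighg2b, which B-lineage cells express, led it. It held 14.7, 37.3 and 57.8 CPM, from 9, 29 and 44 UMIs in 4, 6 and 6 cells. Within cluster 11 alone UV over CON was 3.39 (95% interval 2.21 to 5.20) and Rux over UV -2.51 (95% interval -3.27 to -1.82), whereas Rux over UV within cluster 37 was 0.62 (95% interval -0.078 to 1.36). LEC-like cells held 10.3, 17.5 and 5.12 CPM.

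Angpt1, ENSMUSG00000022309, chr15:42424723-42676977, the TEK agonist, came mainly from stroma. FB-like cells held 65.8%, 77.6% and 81.6% of its UMIs at 42.7, 42.5 and 31.5 CPM, and PCY-like cells stood at 43.8, 64.8 and 88.0. The FB-like ratio of UV over CON was -0.0077 (95% interval -0.13 to 0.11), and Rux over UV was -0.43 (95% interval -0.54 to -0.33). In PCY-like cells Rux over CON was 1.00 (95% interval 0.50 to 1.53), and in smooth-muscle-like cells alone 1.15 (95% interval 0.60 to 1.73). VEC-like cells held at most 1.76 CPM and LEC-like cells at most 4.70.

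Angpt2, ENSMUSG00000031465, chr8:18690263-18741562, was found in endothelial and mural cells. LEC-like cells held 105, 79.2 and 111 CPM, PCY-like cells 83.6, 76.4 and 68.7 and VEC-like cells 65.2, 51.2 and 51.1, and FB-like cells at most 3.47. Although LEC-like cells were 4.02%, 2.95% and 1.55% of the cells, they held 49.5%, 34.7% and 37.2% of the Angpt2 UMIs. No ratio of Angpt2 over all LEC-like, VEC-like or PCY-like cells was past 1.5-fold in any comparison, but levels within these classes differed more. LEC_1 held 130, 52.8 and 93.3 CPM, from 99, 25 and 57 UMIs, and LEC_0 held 88.2, 79.4 and 121. LEC_3, of 24, 26 and 6 cells, held 206, 110 and 55.0. LEC_2 had 0 cells in CON, 39 in UV and 18 in Rux, and held 77.0 CPM in UV and 123 in Rux. The part of LEC_2 in the LEC-like ratios against CON was not tested. Within capillary-like cells Rux over UV was 0.85 (95% interval -0.047 to 1.66). In VEC-like cells Angpt2 was highest in the unresolved subtype, at 159.9, 123 and 87.6 CPM, against 17.4, 24.1 and 42.8 in capillary-like and 28.4, 25.0 and 39.9 in venous-like cells. In the unresolved subtype Rux over CON was -0.85 (95% interval -1.49 to -0.28), from 95 cells in CON and 36 in Rux. The mural level differed by subtype. Smooth-muscle-like cells held 87.4, 74.9 and 57.1 CPM, with Rux over CON at -0.60 (95% interval -1.21 to -0.050). Pericyte-like cells held 17.8, 74.7 and 123, from 1, 14 and 23 UMIs. PCY-like cells that matched neither list held 81.4, 83.9 and 41.8, from 12, 23 and 4 UMIs.

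Across named classes with at least 50 cells in both libraries, 51 gene and class pairs held the 50 UMIs needed to be compared for UV over CON. Of these, 22 were past 1.5-fold, 17 higher and 5 lower. Of all pairs of genes and classes compared in the same way, 19.3% were past that fold, 9.77% higher and 9.55% lower. For Rux over UV, 16 of 48 pairs were past 1.5-fold, 7 higher and 9 lower, beside 14.9% of all pairs, 5.7% higher and 9.24% lower. For Rux over CON, 27 of 47 were, 19 higher and 8 lower, beside 26.1% of all pairs, 11.3% higher and 14.7% lower. The comparisons share libraries and are not independent of each other. Over all genes, the median log2 ratio was within 0.1 of 0 except in FB-like cells, at -0.11 for UV over CON and -0.13 for Rux over CON, in MYE-like cells, at -0.12 for both, and in NEU-like cells, at -0.15 for Rux over CON.

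**Figure D5:**
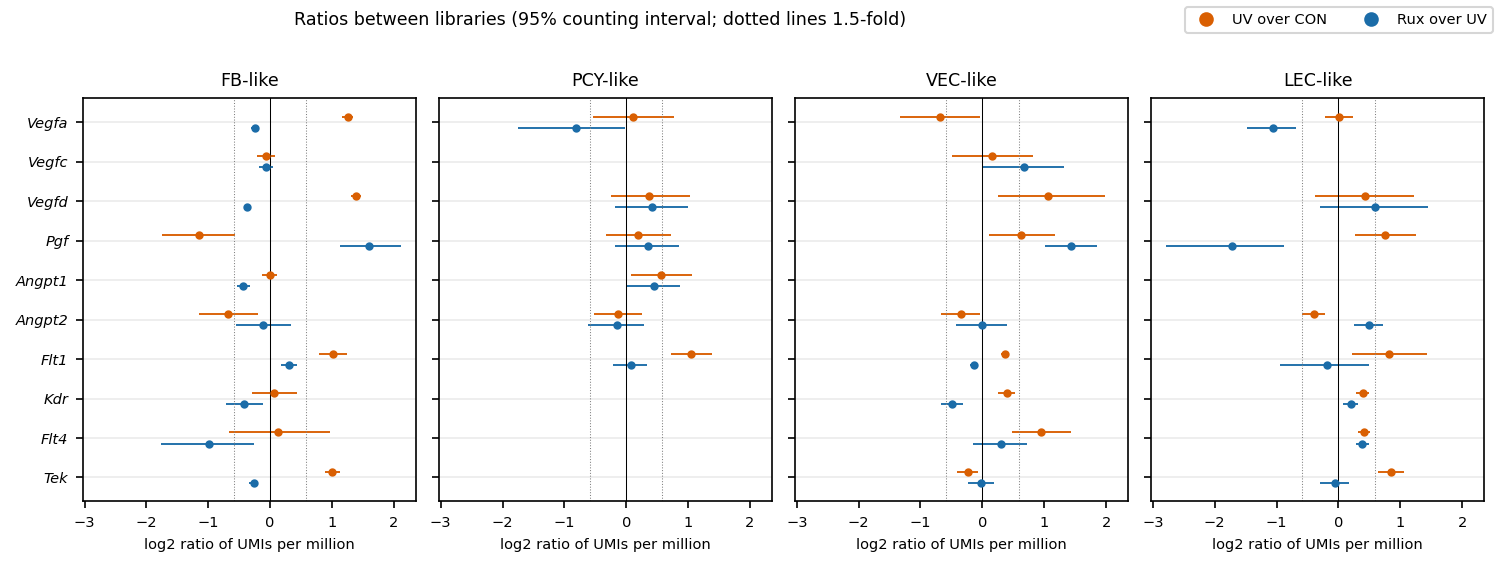
Log2 ratios of CPM for UV over CON and Rux over UV in 4 classes, for genes with at least 50 UMIs in the pair of libraries. Bars are 95% counting intervals and dotted lines mark 1.5-fold. Vegfa and Vegfd in FB-like cells stand at 1.26 and 1.39 for UV over CON, and Pgf in VEC-like cells at 1.43 for Rux over UV.

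In FB-like cells Vegfa, Vegfd, Flt1 and Tek were past 1.5-fold higher in UV than in CON, while Pgf and Angpt2 were lower, beside 25% of all genes in that class. Pgf and Angpt2 were low there, at 2.95 and 3.32 CPM in CON with clusters weighted as in CON. In VEC-like cells Vegfd, Pgf and Flt4 were higher and Vegfa lower, beside 14.2%. Vegfd was low there: VEC-like clusters 15 and 24 held 17 and 0 UMIs in CON and 36 and 11 in UV. In capillary-like cells of UV, 23 Vegfd UMIs came from 9 cells. In LEC-like cells Pgf, Flt1 and Tek were higher and none lower, beside 15.2%. A Flt1 UMI was found in only 6.24% of LEC-like cells in CON and 10.6% in UV. In LEC_0, 40 Pgf UMIs came from 25 of 262 cells in CON and 54 from 17 of 148 cells in UV. In PCY-like cells Flt1 alone was past 1.5-fold, beside 18.2%. In KC-like cells Vegfc, Pgf, Flt4 and Tek were higher, each at 1.64 CPM or less, beside 20.7%.

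Other genes of the pathway were read from a list of 87 in 6 groups, given with the same rule. In VEC-like cells 13 of 70 compared were past 1.5-fold higher in UV than in CON and 5 lower, beside 14.2% of all genes in either direction. The median log2 ratio was 0.11 against 0.0045 over all genes. Co-receptors and receptor partners held 4 of 8 higher and 1 lower. Nrp1, which presents VEGFA to KDR, stood at 241 and 383 CPM in CON and UV, and the integrin gene Itgav at 76.3 and 227. The endothelial response genes held 5 of 21 higher and none lower, among them the basement membrane collagens Col4a1, with a log2 ratio of 1.17 (95% interval 1.07 to 1.28), and Col4a2, with 1.25 (95% interval 1.14 to 1.37). Angptl4, a secreted inhibitor of lipoprotein lipase, had 1.42 (95% interval 1.18 to 1.67). Hypoxia genes held 1 of 14 higher and 2 lower, with Ddit4, a stress-induced inhibitor of mTORC1, at -0.72 (95% interval -0.88 to -0.55). These UV over CON values are over the whole class, whose capillary-like share was 29.1% in CON and 58.7% in UV. The part of this mix in them was not tested. For Rux over UV in VEC-like cells, 3 of 69 were higher and 5 lower, beside 13.8% of all genes, with Nrp1 at -0.62 (95% interval -0.80 to -0.45) and the leukocyte adhesion gene Icam1 at 0.77 (95% interval 0.70 to 0.84).

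In LEC-like cells 5 of 68 list genes were higher and 5 lower for UV over CON, beside 15.2% of all genes in either direction. The median log2 ratio was 0.0025 against 0.027 over all genes. Itgav stood at 541 and 879 CPM in CON and UV, and Dusp5, a phosphatase that limits ERK, had a log2 ratio of -1.10 (95% interval -1.28 to -0.93). For Rux over UV, 2 of 65 were higher and 8 lower, beside 13.9% of all genes, including Nrp2, the co-receptor of FLT4, at -0.62 (95% interval -0.74 to -0.50), and Hif1a, the oxygen-sensed transcription factor, at -0.66 (95% interval -0.84 to -0.48). In PCY-like cells 9 of 56 were higher and 8 lower for UV over CON, beside 18.2% of all genes. For Rux over UV 5 of 53 were higher and 8 lower, beside 15% of all genes.

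In FB-like cells 7 of 73 list genes were higher and 11 lower for UV over CON, beside 25% of all genes in either direction. The median log2 ratio was -0.091 against -0.11 over all genes. Plat, the tissue plasminogen activator, had a log2 ratio of 1.14 (95% interval 1.08 to 1.20), Adm, the vasoactive peptide adrenomedullin, 0.77 (95% interval 0.72 to 0.82), and Nrp2 -1.20 (95% interval -1.31 to -1.09). For Rux over UV 11 of 75 were higher and 8 lower, beside 17.9% of all genes. Ccbe1, which helps to mature VEGFC, had 0.68 (95% interval 0.61 to 0.76), and Angpt4, a further TEK ligand, -1.38 (95% interval -1.56 to -1.21). Hypoxia genes in FB-like cells held 1 of 15 higher and 3 lower for UV over CON, and the KC-like ones 3 of 16 higher and 1 lower. Over all genes 25% in FB-like and 20.7% in KC-like cells were past that fold. The KC-like class is 13 clusters whose shares differed between libraries, among them basal cluster 17 with 485, 24 and 78 cells.

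The genes whose levels most resembled each of the 10 were ranked by Pearson's r of log2(CPM + 1) over 34 class and library profiles from 14 classes, among 16688 genes. Profiles of 1 class share a cell type and profiles of 1 library share depth, so r describes the pattern across classes. For Kdr it was Nova2 (0.965), Cda (0.934) and Robo4 (0.934), for Flt4 Sgsm1 (0.947), Gpr182 (0.942) and Klhl4 (0.941), and for Tek Hspa12b (0.905), Ramp2 (0.9) and Npr1 (0.897). Flt1 was most like Fabp4 (0.901), Vsig2 (0.897) and Tmem255b (0.893). Among ligands, Angpt2 was most like Tinagl1 (0.885), Btbd3 (0.884) and Apold1 (0.876), and Angpt1 like Ccdc170 (0.879), Adam33 (0.875) and 9630002D21Rik (0.854). Vegfd was most like Irx1 (0.856), Col6a6 (0.823) and Lgi2 (0.816), and Vegfa like Pim1 (0.835), Apbb1ip (0.815) and Rbpj (0.801). Pgf was most like Tifa (0.818), Lifr (0.801) and Spaar (0.8), and Vegfc like Cnr1 (0.817) and Gm15657 (0.777).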

How the data were processed

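Droplet 3′ libraries, 1 per condition, were analysed from gene-by-cell matrices of UMI counts deposited by the authors. The submitters' processing notes name Cell Ranger 6.1.2, Seurat 5.3.0 and mm10, whereas the matrix headers give Cell Ranger 7.0.0. The 10 genes and all lists were chosen with earlier results of these data known. Cells were kept from 200 genes upward and up to 10% mitochondrial UMIs, and Scrublet (scanpy 1.11.5) removed 1269, 1128 and 923 predicted doublets in CON, UV and Rux at 0.8% per 1000 cells. Deposited totals were 165337289, 133972374 and 131570327 UMIs, and retained cells had medians of 7549, 7669 and 9438. Seurat 5.3.0 in R 4.3.3 clustered them jointly (2000 variable genes without the 10 genes and the 87 pathway genes, 30 components, resolution 1.5, no batch correction). A name needed at least 3 markers, and most of the list, in 10% of cells, with a minimum mean score. A log2 gap of 1.5 was needed only to other lists detected as widely, and not between VEC and LEC. A cluster stayed unnamed if its leading genes held more markers of another class. It also stayed unnamed with few UMIs per cell and no marker among its leading genes. Counts were summed per class and library with scipy 1.17.1, and CPM is per 1000000 UMIs of that sum. Ratios add 0.5 UMI to each sum, have exact conditional binomial intervals, and count as past 1.5-fold only with 50 UMIs in both libraries together and 50 cells in each (10 for vessel subtypes). Cells are not replicates, so no p-value was computed. UMIs limit amplification bias, and intervals cover counting error only. Pathway genes could be named if past 1.5-fold with 200 UMIs, at most 4 per group, class and comparison, most UMIs first. The text names only some of them. Among those left out were Nr4a1 at -1.51 and Cd44 at 0.79 in FB-like cells for UV over CON. Angptl4 at 1.09 in LEC-like cells for Rux over UV was left out as well. The 3 genes most like each of the 10 are named, except 1 that is not reported here. The ratio code was run on simulated Poisson counts without spread between cells or mice, which checks the code and not the ratios. Gene coordinates are from GENCODE M21 on GRCm38.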

Additional observations from a re-analysis of the deposited data

Results flagged for a closer look

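Ratios of 1 gene stood past 1.5-fold in opposite directions in different classes of the same libraries, and the difference between the classes was not tested. For Pgf, log2 UV over CON was 2.46 in MYE-like and -1.15 in FB-like cells, Rux over UV was 1.60 in FB-like and -1.72 in LEC-like cells, and Rux over CON was 2.05 in VEC-like and -0.96 in LEC-like cells. These rest on low Pgf levels in FB-like cells, 2.95, 1.04 and 4.30 CPM with clusters weighted as in CON. They also rest on few LEC-like UMIs in Rux, 6 in LEC_0 and 5 in LEC_1. For Vegfa, UV over CON was 1.26 in FB-like and -0.68 in VEC-like cells, Rux over UV was 0.63 in MYE-like and -1.06 in LEC-like cells, and Rux over CON was 1.01 in FB-like and -1.44 in VEC-like cells. The VEC-like ratios of Vegfa turned to 0.67 for UV over CON and 0.49 for Rux over CON when predicted doublets were kept. Without cluster 37, led by immunoglobulin genes, the MYE-like ratios above were 3.39 for Pgf and 0.40, under 1.5-fold, for Vegfa. For Vegfc, UV over CON was 1.54 in KC-like and -1.22 in MC-like cells, and Rux over UV was 0.95 in MC-like and -1.51 in LYM-like cells. For Flt1, Rux over CON was 1.32 in FB-like and -0.68 in KC-like cells.

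Unnamed clusters, which entered no class, also held ratios past 1.5-fold against CON, in both directions. Those higher than CON are given first. In cluster 12, led by Adamts18 and Lrrc15, Tek stood at 1.85 for UV and 2.07 for Rux, and Vegfd at 0.82 for Rux. In cluster 14, led by Adgrb3 and Lingo2, UV stood at 1.14 for Vegfc, 2.67 for Vegfd, 1.71 for Pgf and 0.76 for Angpt1, and Rux at 1.11 for Vegfc. Vegfa stood at 0.70 for Rux in cluster 3, led by Gdf10 and Mgp, and at 1.91 for UV in cluster 40, led by Cfd and Car3. Tek stood at 0.73 for Rux in cluster 28. Lower than CON were Angpt1 in cluster 12, at -0.74 for UV and -1.54 for Rux, and Flt1 in cluster 14, at -0.90 for UV.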

How the results depend on the processing

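Without a minimum of UMIs the members past 1.5-fold numbered 55 of 94 for UV over CON, 45 of 87 for Rux over UV and 60 of 92 for Rux over CON. Under the other alternatives the counts ran from 20 to 28, from 12 to 19 and from 18 to 30. The number of pairs compared changes with the minimum of UMIs. No share over all genes was computed under the alternatives, so these counts describe the spread of the member counts only. Of 542 recomputed ratios, 503 stayed within the counting interval of the reported ratio, 33 left it in the same direction and 6 reversed. With predicted doublets kept, Vegfa turned to 0.67 for UV over CON and 0.49 for Rux over CON in VEC-like cells, and to 0.077 for Rux over UV and 0.13 for Rux over CON in PCY-like cells. With each cell weighted equally, Flt1 in LEC-like cells turned to -0.77 for Rux over CON. With FB-like clusters weighted as in CON, Tek in FB-like cells turned to -0.031 for UV over CON. The cause was not tested beyond these constructions. The class with the highest level was kept in 27 of 30 gene and library pairs with a stricter filter, 25 with doublets kept and 28 at resolution 0.8. The alternatives on cluster weights, shared barcodes, clusters 3 and 12 as fibroblasts, cluster 37 left out of the MYE-like class and strictly filtered subclusters were chosen after seeing the data. No paired analysis was possible because each condition had 1 library. Depth limits genes with few UMIs per class, among them Pgf in venous-like and Vegfa in VEC-like cells.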

Other observations

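Unnamed cluster 28, led by Rgs5, Fabp4 and Cd36 and carrying both endothelial and pericyte markers, had 75, 173 and 61 cells in CON, UV and Rux. It held 1716, 1556 and 1536 CPM of Flt1, 193, 199 and 241 of Kdr, 79.6, 108 and 133 of Tek and 56.9, 53.6 and 72.9 of Angpt2. Its median depth was 10090.0 UMIs per cell. Cluster 14 held 41.3, 22.2 and 52.4 CPM of Flt1 and 82.3, 91.9 and 78.3 of Vegfa.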
